A study of Mus musculus with 12 samples.

Results

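The hnRNP A family was examined in mouse splenic B cells with and without deletion of 2 of its genes, Hnrnpa1 and Hnrnpa2b1. Its members here, chosen by symbol, were the rows for Hnrnpa1, Hnrnpa2b1, Hnrnpa3, Hnrnpa0 and Gm10052, which are 5 of 55359 genes in the deposited table of untreated cells. All 5 were present in each of the 3 deposited tables. B cells were isolated from spleen by negative selection with CD43 beads, and poly(A) RNA was sequenced. The series asks how hnRNP A1 and hnRNP A2B1 act in the germinal centre response of B cells. The 12 libraries comprised 3 wild-type (WT) and 3 double-knockout (DKO) libraries of untreated cells, 2 WT and 2 DKO libraries of cells kept for 48 h with anti-CD40 at 1 µg/mL and anti-IgM at 10 µg/mL, and 2 further WT libraries of untreated cells, called additional WT here. DKO cells carried Cre-loxP deletions of both genes, and the targeted exons, the promoter driving Cre, the strain and the age of the mice are not stated in the labels. Whether the replicates of a group are separate mice is not in the labels either. By Xist and Y-linked genes, untreated WT library 2 and DKO library 1 read as female and the other libraries as male, so each untreated group held RNA of more than 1 mouse. The p-values cover only the spread among these libraries, which in the stimulated groups may be technical.

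Heterogeneous nuclear ribonucleoproteins (hnRNPs) coat new transcripts in the nucleus and take part in splicing, packaging and export of RNA. Proteins of the A group share a pair of RNA recognition motifs (RRMs), which contact RNA, and a glycine-rich tail. hnRNP A1 and hnRNP A2B1 often oppose the use of exons near their binding sites, and hnRNP A3 and hnRNP A0 are their closest relatives. Many genes of this group have processed pseudogenes, which are copies of a spliced transcript inserted elsewhere in the genome without introns.

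The relation of the 4 genes is shown by the stretch of coding sequence that holds the RNP1 motif of the first RRM, the part of the motif that lies against RNA. The sequences below are from GENCODE M21 transcripts on GRCm38, and capitals mark the bases coding for RNP1.
Hnrnpa1: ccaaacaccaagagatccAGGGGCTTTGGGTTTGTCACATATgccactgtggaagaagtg
Hnrnpa2b1: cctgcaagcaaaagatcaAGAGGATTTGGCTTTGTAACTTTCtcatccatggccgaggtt
Hnrnpa3: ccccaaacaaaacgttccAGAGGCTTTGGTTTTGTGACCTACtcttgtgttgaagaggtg
Hnrnpa0: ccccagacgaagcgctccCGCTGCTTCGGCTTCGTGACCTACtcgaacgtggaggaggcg
These windows lie at chr15:103241458-103241517 (plus strand), chr6:51466981-51467040 (minus strand), chr2:75661683-75661742 (plus strand) and chr13:58128131-58128190 (minus strand). Of 60 bases, Hnrnpa3 shared 42 with Hnrnpa1, Hnrnpa0 shared 38 and Hnrnpa2b1 shared 37. Over longer alignments of transcripts, Hnrnpa1 and Hnrnpa3 were 73.4% identical and Hnrnpa1 and Hnrnpa2b1 were 68.0% identical. The 4 genes thus differed from each other at many bases, while some of them had copies elsewhere that did not.

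Gm10052 is such a copy of Hnrnpa1. Its 960 bases were identical to the whole coding sequence of an Hnrnpa1 transcript (ENSMUST00000087351.8), which spans 8 exon junctions in Hnrnpa1 and none in Gm10052. A window across 1 of these junctions shows the identity, with capitals on the 2 bases either side of the junction.
Hnrnpa1: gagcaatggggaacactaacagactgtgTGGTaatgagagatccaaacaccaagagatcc
Gm10052: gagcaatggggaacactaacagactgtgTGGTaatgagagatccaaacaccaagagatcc
In GRCm38 the window is split in Hnrnpa1 between chr15:103241167-103241196 and chr15:103241446-103241475, and it is unbroken in Gm10052 at chr9:123690031-123690090 on the minus strand. A read lying within this coding sequence therefore matches both loci equally well. Counts were deposited per gene, so how such reads were divided between the 2 rows cannot be seen in the values.

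Hnrnpa3 has the most copies of the family. In GENCODE M21, transcripts of 37 other genes matched an Hnrnpa3 transcript at 90% identity or more over 300 bases or more, against 17 for Hnrnpa1, 1 for Hnrnpa2b1 and 0 for Hnrnpa0. The 5 with the most counts are shown beside Hnrnpa3, with capitals on bases that differ from it. The window was picked for its differences. Among coding windows aligned without gaps in all 5, most copies, and then most bases, differ from Hnrnpa3 in it.
Hnrnpa3: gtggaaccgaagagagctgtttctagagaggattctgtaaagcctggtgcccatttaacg
Gm5641: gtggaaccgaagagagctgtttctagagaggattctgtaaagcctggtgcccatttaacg
Gm11847: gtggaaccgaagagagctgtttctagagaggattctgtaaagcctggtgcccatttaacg
Gm8991: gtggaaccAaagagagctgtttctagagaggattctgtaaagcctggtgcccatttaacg
Gm12960: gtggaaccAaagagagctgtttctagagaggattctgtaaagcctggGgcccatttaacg
Gm6793: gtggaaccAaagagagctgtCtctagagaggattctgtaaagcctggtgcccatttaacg
The Hnrnpa3 window lies at chr2:75661788-75661925 (plus strand, GRCm38) with 1 intron inside it. The copies hold it without an intron, at chr3:54481712-54481771, chr4:12233145-12233204, chr5:16730769-16730828, chr4:111808122-111808181 and chr8:112014703-112014762 in the order printed. Gm5641 and Gm11847 lie on the plus strand, and Gm8991, Gm12960 and Gm6793 lie on the minus strand. Gm5641 was identical to Hnrnpa3 over all of its 1488 aligned bases, and the others were 97.2% to 99.2% identical. Of all stretches of 100 bases in the transcripts of each gene, 25.9% of those of Hnrnpa1 and 25.6% of those of Hnrnpa3 occurred unchanged in the transcript of another gene. For Hnrnpa2b1 and Hnrnpa0 this share was 0.0%. The values of Hnrnpa2b1 and Hnrnpa0 thus rest on sequence that is almost wholly their own, and those of Hnrnpa1 and Hnrnpa3 do not.

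Across the libraries, 15090953 to 21731893 counts were assigned to genes. All 6 B cell markers checked were detected in each group, and their summed level was 3315 to 3824 CPM (counts scaled to the library total) in untreated WT, 2650 to 3092 CPM in untreated DKO, 5711 to 6183 CPM in stimulated WT and 4143 to 4553 CPM in stimulated DKO libraries. Summed T cell markers were 0.743 to 2.60 CPM in the 6 numbered untreated libraries, 14.3 and 16.9 CPM in stimulated WT and 5.60 and 6.49 CPM in stimulated DKO libraries, and their part in the comparisons was not tested. Fewer cells of a type and less RNA per cell cannot be told apart in such bulk samples. Untreated, stimulated and additional libraries were deposited in separate tables, so the treatment and the table cannot be told apart. The additional table carries GRCm38 coordinates and the other tables GRCm39, so values set across them may also differ by processing.

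Hnrnpa1 (ENSMUSG00000046434; chromosome 15, 103148859 to 103155119 of GRCm39, plus strand) was low in every DKO library. In untreated WT cells it had 741, 720 and 718 CPM in libraries 1, 2 and 3. In untreated DKO cells it had 76.7, 199 and 99.1 CPM. In stimulated cells it had 1738 and 1728 CPM in WT and 252 and 238 CPM in DKO. The WT and DKO libraries did not overlap in either state, and DKO library 2 stood highest among the untreated DKO libraries. The log2 fold change of DKO against WT was -2.46 ± 0.30 (± SE) in the untreated state (adjusted p = 0.00217, from edgeR's quasi-likelihood test adjusted by Benjamini-Hochberg over all tested genes) and -2.72 ± 0.20 in stimulated cells (edgeR adjusted p = 0.000321).

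Hnrnpa2b1 (ENSMUSG00000004980; chromosome 6, 51437912 to 51446874 of GRCm39, minus strand) had the highest counts of the family in untreated WT cells, with 2020, 1782 and 1958 CPM. The untreated DKO libraries had 335, 619 and 387 CPM. Stimulated WT libraries had 1824 and 1842 CPM, and stimulated DKO libraries had 330 and 420 CPM. As for Hnrnpa1, the genotypes did not overlap and the highest untreated DKO value was that of library 2. The log2 fold change was -2.03 ± 0.20 in untreated cells (edgeR adjusted p = 0.00142) and -2.19 ± 0.20 in stimulated cells (edgeR adjusted p = 0.00115).

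The untreated DKO libraries kept their order in both targeted genes. The summed level of 5 monocyte and macrophage markers was 28.9 CPM in DKO library 1, 54.6 CPM in library 2 and 41.1 CPM in library 3, which is also the order of both genes. It was 57.4 to 60.4 CPM in untreated WT libraries. Summed stromal and endothelial markers (24.2, 33.3 and 29.1 CPM in DKO libraries 1, 2 and 3) and erythroid markers (1.07, 4.52 and 2.86 CPM) stood in that order too. The B cell, T cell, natural killer cell, neutrophil, dendritic cell, platelet and plasma cell sums did not. Among these, DKO library 2 was lowest for T cell (1.45, 0.743 and 1.69 CPM) and dendritic cell markers (73.0, 67.7 and 74.5 CPM). It was highest for natural killer cell, neutrophil and plasma cell markers. The stromal and endothelial sum was 53.9 to 74.8 CPM in untreated WT libraries, and in stimulated cells it was 109 and 122 CPM in WT and 54.6 and 47.9 CPM in DKO libraries. Of the 4 markers in that sum (Col1a1, Col1a2, Pecam1 and Cdh5), Col1a1 had no count in untreated DKO and Col1a2 none in stimulated DKO libraries. Neither had a count in additional WT libraries, where Pecam1 and Cdh5 alone gave 45.3 and 79.0 CPM. Which cells these marker counts came from was not tested. Their part in the remaining counts and in the differences between genotypes was not tested either. Without DKO library 2 the log2 fold change of Hnrnpa1 in untreated cells was -2.97, and that of Hnrnpa2b1 was -2.34.

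**Figure D1:**
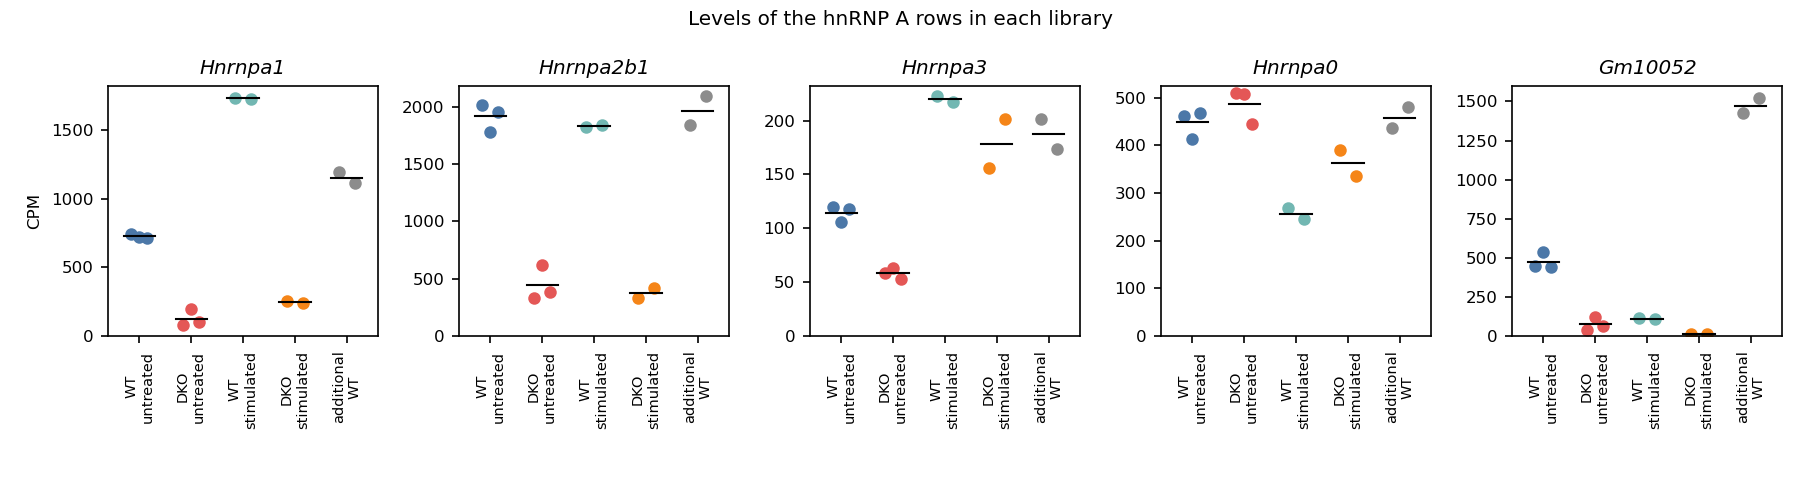
CPM of each of the 5 rows (vertical axes, from 0, a scale of its own for each gene) in each of the 12 libraries, by group (horizontal axes). Points are libraries and bars are group means. DKO libraries lie below the WT libraries of the same state for Hnrnpa1, Hnrnpa2b1 and Gm10052, and the untreated DKO libraries also for Hnrnpa3.

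Gm10052 (ENSMUSG00000058922; chromosome 9, 123518298 to 123519257 of GRCm39, minus strand) was not itself a target, and its row was lower in DKO cells by about as much as that of Hnrnpa1. It had 450, 535 and 439 CPM in untreated WT and 38.9, 123 and 61.3 CPM in untreated DKO libraries. In stimulated cells it had 112 and 108 CPM in WT and 14.3 and 14.8 CPM in DKO. The genotypes did not overlap, and the untreated DKO libraries stood in the same order as for Hnrnpa1. The log2 fold change was -2.60 ± 0.35 in untreated cells (edgeR adjusted p = 0.00299) and -2.83 ± 0.17 in stimulated cells (edgeR adjusted p = 0.000151). Gm7729, an unprocessed pseudogene 99.4% identical to Hnrnpa1 over 804 bases, was the other copy that averaged at least 1 CPM in a group. It had 3.00 to 4.47 CPM in untreated WT and 0.253 to 0.991 CPM in untreated DKO libraries. Its log2 fold change was -2.25 ± 0.41 in untreated cells (edgeR adjusted p = 0.00838) and -3.11 ± 0.54 in stimulated cells (edgeR adjusted p = 0.0111).

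The share of Gm10052 in the counts of Hnrnpa1 plus Gm10052 differed far less between the genotypes than between the tables. In untreated WT libraries 1 to 3 it was 37.8%, 42.6% and 38.0%, and in untreated DKO libraries it was 33.7%, 38.2% and 38.2%. The widest Wilson 95% interval, which covers counting error only, ran from 31.5% to 35.9%, in DKO library 1. The means differed by -2.79 percentage points between DKO and WT (exact permutation test, two-sided, p = 0.6, n = 3 and 3, smallest possible p = 0.1). In stimulated cells the share was 6.07% and 5.89% in WT and 5.35% and 5.84% in DKO libraries (difference of means -0.387 percentage points, exact permutation test, p = 0.333, which is the smallest possible with n = 2 and 2). In the additional WT libraries it was 54.4% and 57.7%, so no library of one table reached the shares of another.

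Adding the rows of Hnrnpa1 and all its copies gave a sum that the division of counted reads among these rows does not touch. Reads left uncounted because they match several places would still be missing from it. How such reads were treated was not given. It was 1195, 1261 and 1160 CPM in untreated WT and 116, 323 and 161 CPM in untreated DKO libraries. In stimulated cells it was 1854 and 1841 CPM in WT and 267 and 254 CPM in DKO. The summed counts had a log2 fold change of -2.51 ± 0.32 in untreated cells (edgeR adjusted p = 0.00246) and -2.73 ± 0.20 in stimulated cells (edgeR adjusted p = 0.000357), close to the values of the Hnrnpa1 row alone. This sum was chosen after the data were seen.

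Hnrnpa3 (ENSMUSG00000059005; chromosome 2, 75489605 to 75499751 of GRCm39, plus strand) encodes the closest relative of hnRNP A1 by transcript identity, and its own row was lower in untreated DKO cells. It had 120, 105 and 118 CPM in untreated WT and 58.9, 62.9 and 52.5 CPM in untreated DKO libraries. The groups did not overlap, and the log2 fold change was -0.91 ± 0.09 (edgeR adjusted p = 0.00142). In stimulated cells the row had 223 and 217 CPM in WT and 156 and 202 CPM in DKO, a log2 fold change of -0.21 ± 0.19 that did not pass the threshold (edgeR adjusted p = 0.481). The difference between the 2 changes was 0.73 ± 0.17 and did not pass in edgeR (adjusted p = 0.130), though it passed in DESeq2 (0.72, DESeq2 adjusted p = 0.0229).

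The copies of Hnrnpa3 held most of the counts of this group in untreated cells, and those counts were higher in DKO than in numbered WT libraries. Gm6793, which GENCODE M21 annotates as protein coding, had 276, 236 and 237 CPM in untreated WT and 314, 323 and 340 CPM in untreated DKO libraries, more than Hnrnpa3 itself in each. Gm12960, a processed pseudogene, had 127, 152 and 120 CPM in WT and 206, 191 and 214 CPM in DKO. Neither copy overlapped between the genotypes in the numbered libraries. The additional WT libraries had 330 and 355 CPM of Gm6793 and 309 and 324 CPM of Gm12960, reaching or passing the DKO libraries, and all copies summed to 907 and 942 CPM there against 712 to 781 CPM in untreated DKO libraries. The log2 fold change was 0.45 ± 0.08 for Gm6793 (edgeR adjusted p = 0.00805) and 0.69 ± 0.10 for Gm12960 (edgeR adjusted p = 0.00364). Gm8991 (0.44 ± 0.09, edgeR adjusted p = 0.0126) and Gm11847 (0.37 ± 0.09, edgeR adjusted p = 0.0189) were also higher. With the additional libraries counted as WT, none of these 4 copies passed (0.04 to 0.25). Gm5641, which is identical to Hnrnpa3, changed by -0.10 ± 0.20 (edgeR adjusted p = 0.771). The other 6 copies that averaged at least 1 CPM in a group had 0.0518 to 9.14 CPM in any library, and 6 of the 37 copies had no count in any.

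Summed with all its copies, Hnrnpa3 did not fall in untreated DKO cells. The sum was 741, 650 and 668 CPM in untreated WT and 785, 775 and 834 CPM in untreated DKO libraries, so the DKO libraries now lay above the numbered WT libraries. The additional WT libraries, also of untreated cells but from a table on another build, had 1109 and 1116 CPM, above the DKO libraries. Its log2 fold change was 0.29 ± 0.08 (edgeR adjusted p = 0.0285), opposite in sign to that of the Hnrnpa3 row alone. In stimulated cells the sum was 354 and 330 CPM in WT and 256 and 369 CPM in DKO, with a log2 fold change of -0.04 ± 0.21 (edgeR adjusted p = 0.922) and overlapping groups. The Hnrnpa3 row made up 16.2%, 16.2% and 17.7% of this sum in untreated WT and 7.51%, 8.11% and 6.29% in untreated DKO libraries. The means differed by -9.40 percentage points (exact permutation test, two-sided, p = 0.1, the smallest possible with n = 3 and 3). The row held 63.0% and 66.0% of the sum in stimulated WT, 60.7% and 54.7% in stimulated DKO, and 18.2% and 15.6% in additional WT libraries. The row alone and the summed rows thus gave opposite directions in untreated cells, and the counts do not show how reads were assigned. These sums and shares were also chosen after the data were seen.

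**Figure D2:**
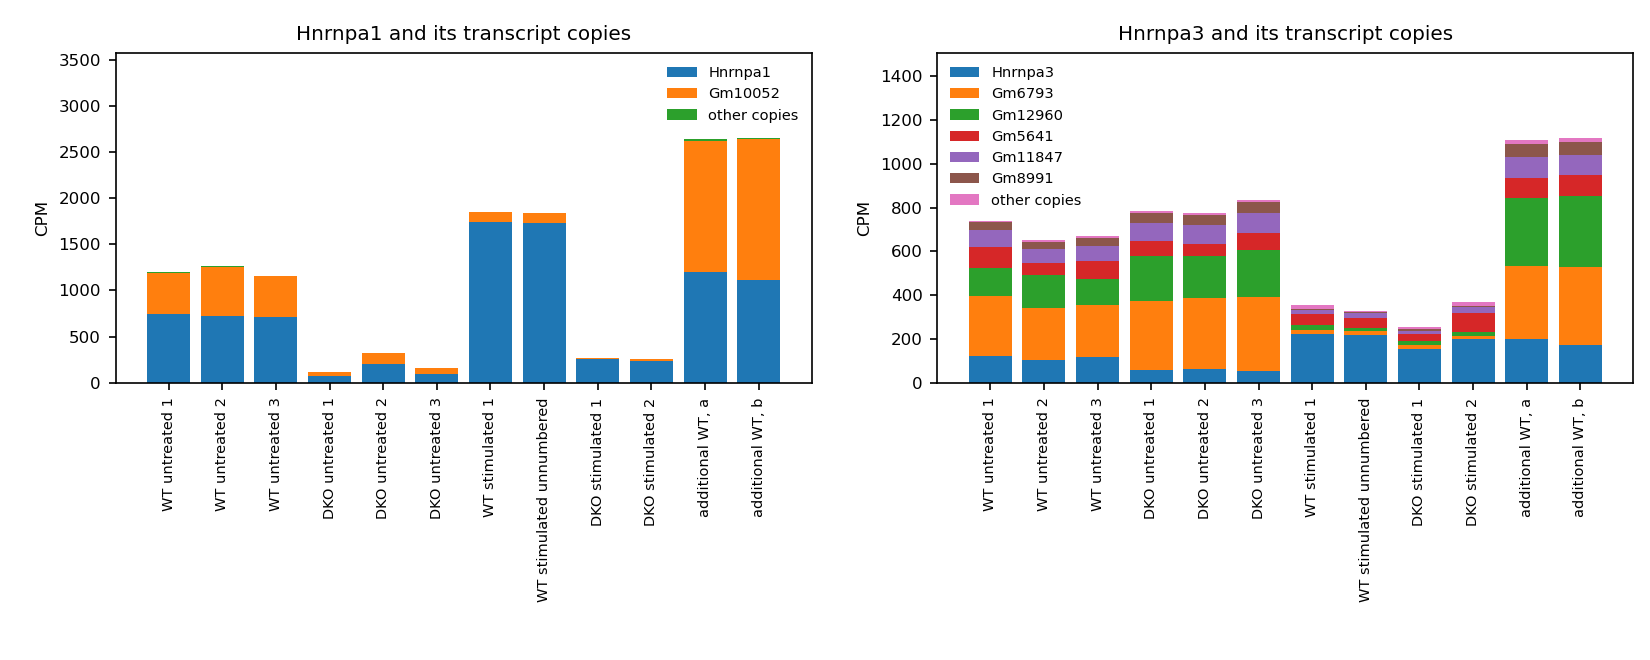
CPM of Hnrnpa1 with its transcript copies (left) and of Hnrnpa3 with its transcript copies (right), stacked, in each of the 12 libraries. Gm10052 makes up 37.8% to 42.6% of the Hnrnpa1 plus Gm10052 counts in untreated WT libraries and 5.89% to 6.07% in stimulated WT libraries. The Hnrnpa3 row is the smaller part of its sum in untreated and additional libraries and the larger part in stimulated ones.

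Hnrnpa0 (ENSMUSG00000007836; chromosome 13, 58273693 to 58276370 of GRCm39, minus strand) is a single-exon gene, and no other transcript in GENCODE M21 matched it as a copy. It encodes a relative that binds AU-rich elements in messages for inflammatory proteins. It had 462, 413 and 468 CPM in untreated WT and 510, 509 and 444 CPM in untreated DKO libraries, which overlapped. The log2 fold change was 0.20 ± 0.08 (edgeR adjusted p = 0.127). In stimulated cells it had 268 and 245 CPM in WT and 391 and 336 CPM in DKO, which did not overlap. The log2 fold change of 0.60 ± 0.19 did not pass in the edgeR test of 4 libraries (adjusted p = 0.0693). It passed in DESeq2 (0.62, adjusted p = 0.0170), without the filter on low counts (0.61, edgeR adjusted p = 0.0267) and in 1 edgeR fit over the 10 numbered and stimulated libraries (0.65, adjusted p = 0.00819). In the other 5 of 8 alternatives with all 4 libraries it did not pass. Without that filter and in that joint fit, more genes of any kind were called than in the main test. The difference from the untreated change was 0.44 ± 0.19 (edgeR adjusted p = 0.383).

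These counts can be set against all genes tested. In untreated cells 19.5% of 13561 tested genes passed. Of the 5 rows 4 were lower in DKO cells, 2 of them targeted and 1 a copy of a target, against 10.6% of all tested genes lower and 8.81% higher. In stimulated cells 11.3% of 14430 tested genes passed, and 3 of the 5 rows were lower, against 6.17% of all tested genes lower and 5.09% higher. Higher genes were 45.2% of those called there, and 56.0% in 1 fit over 10 libraries. In untreated cells they were 45.3%, and 27.9% with the additional libraries counted as WT. Genotypes without overlap were no rare event, at 39.4% of the genes tested in untreated and 62.7% in stimulated cells. None of the 5 rows passed the test of the interaction of genotype and stimulation, which 0.14% of 15006 genes did (21 genes in edgeR, 174 in DESeq2). The interaction was -0.22 ± 0.40 for Hnrnpa1 (edgeR adjusted p = 0.856), -0.13 ± 0.29 for Hnrnpa2b1 (edgeR adjusted p = 0.879) and -0.19 ± 0.47 for Gm10052 (edgeR adjusted p = 0.900).

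**Figure D3:**
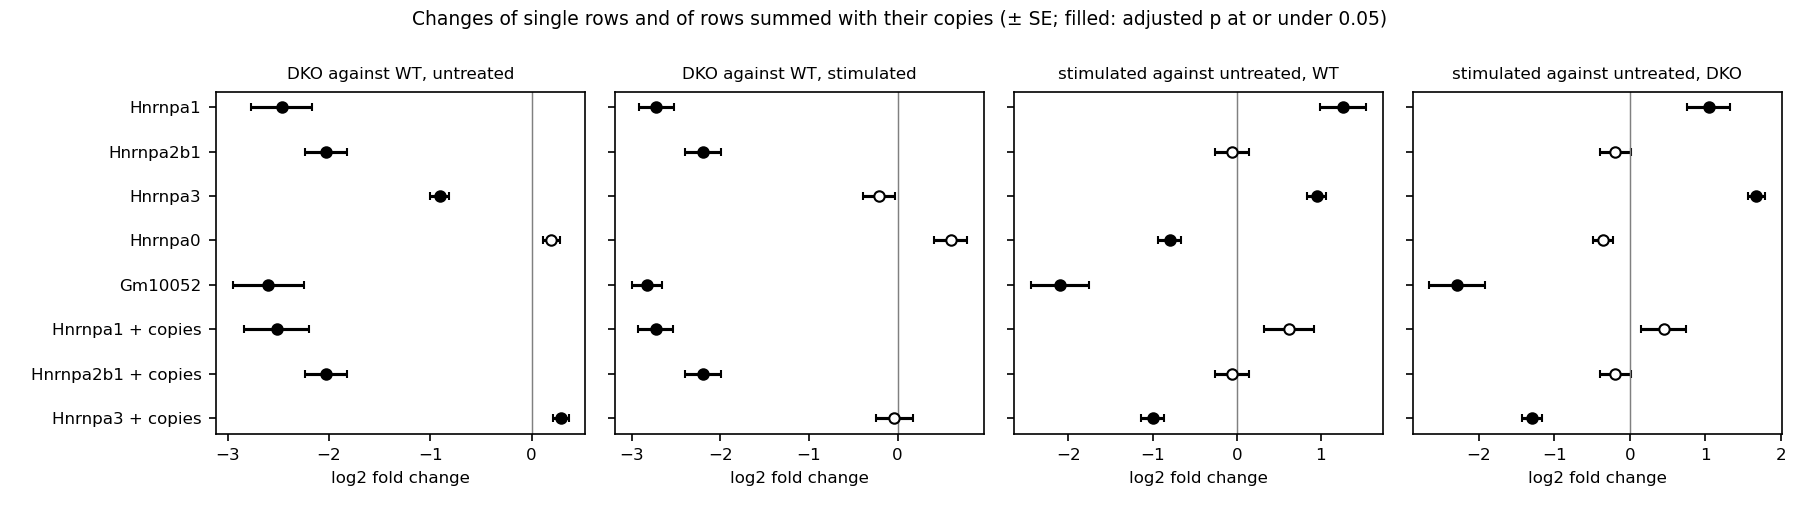
Log2 fold change ± SE (horizontal axes) of the 5 rows and of Hnrnpa1, Hnrnpa2b1 and Hnrnpa3 summed with their copies (vertical axis), in DKO against WT cells of each state and in stimulated against untreated cells of each genotype. Filled points passed an adjusted p of 0.05 in edgeR. Hnrnpa3 alone and Hnrnpa3 with its copies lie on opposite sides of 0 in untreated DKO against WT (-0.91 and 0.29) and in both comparisons of stimulation.

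Per exonic length, the targeted pair made up most of the family in WT cells and less of it in DKO cells. In CPM per kilobase, untreated WT cells had 292 ± 18.7 for Hnrnpa2b1, 230 ± 4.10 for Hnrnpa1, 167 ± 11.3 for Hnrnpa0 and 21.2 ± 1.47 for Hnrnpa3 (mean ± SD, n = 3), and no neighbours in this order overlapped. In untreated DKO cells the order was 182 ± 14.1 for Hnrnpa0, 67.9 ± 23.0 for Hnrnpa2b1, 39.6 ± 20.7 for Hnrnpa1 and 10.8 ± 0.972 for Hnrnpa3 (n = 3), with Hnrnpa2b1 and Hnrnpa1 overlapping. Hnrnpa1 led in stimulated WT cells, with 550 ± 2.25 against 278 ± 1.98 for Hnrnpa2b1, 95.8 ± 6.18 for Hnrnpa0 and 40.8 ± 0.751 for Hnrnpa3 (n = 2). Hnrnpa0 led again in stimulated DKO cells, with 136 ± 14.6 against 77.8 ± 3.15 for Hnrnpa1, 57.0 ± 9.69 for Hnrnpa2b1 and 33.1 ± 6.02 for Hnrnpa3 (n = 2). Hnrnpa0 was thus the most abundant of the 4 per exonic length in both DKO groups and in neither WT group. In each state its WT mean already lay above the DKO means of both targeted genes. The order of the 4 genes depends on the length used, which was 6584 bases for Hnrnpa2b1 and 2678 for Hnrnpa0. The Hnrnpa2b1 transcript used for the RNP1 window has only 1728 bases. Without division by length, Hnrnpa2b1 and Hnrnpa0 averaged 447 and 488 CPM in untreated DKO cells and 375 and 363 CPM in stimulated DKO cells. Summed with its copies and divided by its own length, Hnrnpa1 reached 382 ± 16.2 in untreated WT cells (n = 3) and so passed Hnrnpa2b1 there.

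The summed level of the 4 genes fell with the targeted pair, and the untargeted pair took a larger share of a smaller sum. Such a share rises when the targeted pair falls, even with the other genes unchanged. It therefore does not measure a change in Hnrnpa3 or Hnrnpa0, whose own levels are given above. The sum was 710 ± 33.4 CPM per kilobase in WT and 300 ± 50.8 in DKO cells of the untreated state (mean ± SD, n = 3). It was 965 ± 7.21 and 304 ± 2.03 in stimulated WT and DKO cells (n = 2). Hnrnpa3 and Hnrnpa0 together were 26.5% ± 0.717 of it in WT and 65.0% ± 8.38 in DKO cells when untreated (n = 3). The share was 14.2% ± 0.613 in stimulated WT and 55.6% ± 2.45 in stimulated DKO cells (n = 2).

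**Figure D4:**
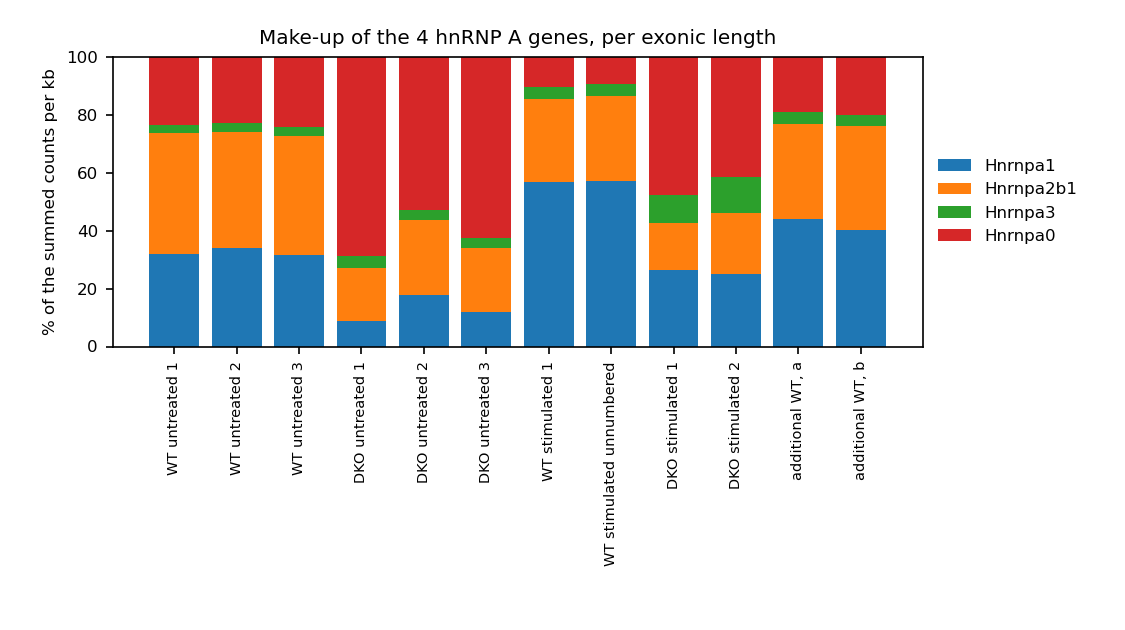
Share of each of the 4 genes in their summed counts per kilobase (vertical axis, in percent), stacked for each of the 12 libraries. Hnrnpa0 is 9.53% to 24.2% of the sum in numbered and stimulated WT libraries and 41.5% to 68.9% in DKO libraries.

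The balance between the targeted genes was compared within each library, since both values then come from the same cells. The log2 ratio of Hnrnpa1 to Hnrnpa2b1 counts was -1.45, -1.31 and -1.45 in untreated WT and -2.12, -1.64 and -1.96 in untreated DKO libraries. In stimulated cells it was -0.07 and -0.09 in WT and -0.39 and -0.82 in DKO libraries. DKO libraries were lower than WT libraries of the same state without overlap, by -0.51 in untreated (exact permutation test, two-sided, p = 0.1, n = 3 and 3) and -0.52 in stimulated cells (exact permutation test, p = 0.333, n = 2 and 2). Both are the smallest p these designs allow, so neither could pass 0.05. In DKO cells the ratio also depends on which exons of each gene were deleted, and in how many cells. The labels do not state this, and its part in the difference was not tested.

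Stimulated and untreated cells of the same genotype were compared in 1 fit over 10 libraries. These 4-group contrasts share libraries with the comparisons of genotype, and each lies across 2 tables. Of 15006 genes, 40.6% passed in WT cells (17.8% higher and 22.8% lower) and 33% in DKO cells (16.2% and 16.8%). Of the 5 rows, 2 were higher and 2 lower in WT cells, and 2 were higher and 1 lower in DKO cells. Hnrnpa2b1 changed least, by -0.06 ± 0.20 in WT (edgeR adjusted p = 0.837) and -0.19 ± 0.20 in DKO cells (edgeR adjusted p = 0.5003). Hnrnpa0 was lower in stimulated WT cells, by -0.79 ± 0.13 (edgeR adjusted p = 0.000565), and changed by -0.35 ± 0.13 in DKO cells (edgeR adjusted p = 0.0580).

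The rows that share sequence with copies moved apart from their most abundant copies. The Hnrnpa1 row was higher in stimulated cells, by 1.26 ± 0.28 in WT (edgeR adjusted p = 0.00325) and 1.04 ± 0.28 in DKO cells (edgeR adjusted p = 0.0128), and Gm10052 was lower, by -2.10 ± 0.35 (edgeR adjusted p = 0.000495) and -2.29 ± 0.37 (edgeR adjusted p = 0.000498). Hnrnpa1 summed with all its copies changed by 0.62 ± 0.29 in WT (edgeR adjusted p = 0.110) and 0.45 ± 0.30 in DKO cells (edgeR adjusted p = 0.269), which did not pass. The Hnrnpa3 row was higher, by 0.95 ± 0.12 in WT (edgeR adjusted p = 5.06e-05) and 1.68 ± 0.12 in DKO cells (edgeR adjusted p = 5.46e-07), whereas Gm6793 was lower by -3.81 ± 0.18 (edgeR adjusted p = 1.67e-08) and -4.35 ± 0.19 (edgeR adjusted p = 7.04e-09). Not all copies of Hnrnpa3 went that way, since Gm6254 (2.74 ± 0.52, edgeR adjusted p = 0.00119) and Gm5940 (4.15 ± 1.07, edgeR adjusted p = 0.0081), both of few counts, were higher in stimulated WT cells, and Gm5641 did not pass (-0.69 ± 0.31, edgeR adjusted p = 0.0900). Hnrnpa3 with its copies was lower, by -0.998 ± 0.14 in WT (edgeR adjusted p = 0.000118) and -1.30 ± 0.14 in DKO cells (edgeR adjusted p = 2.07e-05), the reverse of the row alone. Between these tables the Hnrnpa3 row and its summed group thus had opposite signs, while the Hnrnpa1 sum had the sign of its row and did not pass.

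The additional WT libraries, also labelled untreated, differed from the numbered ones in the same rows, and not only in these. Hnrnpa2b1 had 1841 and 2090 CPM there and Hnrnpa0 had 437 and 479 CPM, near the ranges of the numbered WT libraries (1782 to 2020 and 413 to 468 CPM). Hnrnpa1 had 1195 and 1115 CPM, Hnrnpa3 had 202 and 174 CPM and Gm10052 had 1427 and 1521 CPM, all above the numbered WT libraries. Other genes for RNA-binding proteins differed as well. Msi2 had 435 to 508 CPM in additional and 143 to 192 CPM in numbered WT libraries. Ptbp1 had 249 to 313 CPM and 704 to 765 CPM, in that order, whereas Tardbp overlapped (648 to 769 and 676 to 694 CPM). No test was made between these tables.

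Other RNA-binding relatives with a pair of RRMs, among them the AU-rich element binders Hnrnpd and Hnrnpdl, the Musashi genes and Tardbp, formed the first of 3 lists. In untreated cells 1 of 6 tested genes was higher in DKO cells and 1 lower (median log2 fold change -0.01 against -0.01 over all genes), where 8.81% of all tested genes were higher and 10.6% lower. Hnrnpab, which encodes a CArG-box and RNA binding protein, had 1129, 1097 and 1053 CPM in WT and 1450, 1369 and 1387 CPM in DKO libraries and rose by 0.43 ± 0.07 (edgeR adjusted p = 0.00459). Hnrnpd had 489, 475 and 465 CPM in WT and 354, 340 and 299 CPM in DKO libraries and fell by 0.45 ± 0.08 on the log2 scale (edgeR adjusted p = 0.00683). Neither gene overlapped between genotypes in the numbered libraries. The additional WT libraries had 591 and 690 CPM of Hnrnpab, below all of these, and 263 and 325 CPM of Hnrnpd, within or below the DKO range. With them counted as WT neither gene passed (0.69 and -0.22). In stimulated cells 1 of 7 passed, Hnrnpab with 0.76 ± 0.20 (edgeR adjusted p = 0.0445), a call lost without either WT library (0.58 and 0.96). The median of the list was -0.12 there, against -0.03 over all genes, of which 11.3% passed. Hnrnpd changed there by -0.64 ± 0.19 (edgeR adjusted p = 0.0623).

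The second list held 25 other hnRNP genes. In untreated cells 5 were higher (8.81% of all tested genes were), 3 were lower (10.6% of all) and 17 did not pass (median -0.04, and -0.02 in stimulated cells). Hnrnpll, which encodes a regulator of CD45 splicing in lymphocytes, changed most among them. It had 3.70, 3.43 and 4.14 CPM in untreated WT and 5.56, 8.92 and 9.95 CPM in untreated DKO libraries, without overlap, and rose by 1.19 ± 0.24 (edgeR adjusted p = 0.0111, and 0.0511 without DKO library 3). In stimulated cells it had 1.97 and 2.22 CPM in WT and 10.5 and 12.4 CPM in DKO libraries. It was the 1 gene of 25 that passed there, with 2.55 ± 0.26 (edgeR adjusted p = 0.00157), where 11.3% of all tested genes passed. The additional WT libraries had 20.8 and 10.5 CPM of Hnrnpll, above all numbered untreated libraries, and counting them as WT brought its untreated change to 0.00. Summed plasma cell markers, a cell type in which Hnrnpll is known to be high, were 152 to 185 CPM in untreated WT and 86.0 to 113 CPM in untreated DKO libraries. In stimulated cells, where the change of Hnrnpll was larger, the WT and DKO libraries overlapped in this sum. Whether plasma cells had a part in the change of Hnrnpll was not tested in either state.

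Smaller changes were seen in the rest of that list in untreated cells. The splicing regulators Ptbp1 (-0.34 ± 0.07, edgeR adjusted p = 0.0147) and Ptbp2 (-0.34 ± 0.10, edgeR adjusted p = 0.0465) were lower, as was Hnrnph2 (-0.21 ± 0.06, edgeR adjusted p = 0.0461). Hnrnph3 (0.38 ± 0.10, edgeR adjusted p = 0.0269) and the poly(C)-binding protein gene Pcbp2 (0.31 ± 0.07, edgeR adjusted p = 0.0148) were higher, with Hnrnph1 and Syncrip. Of 6 fits that left out 1 library, Ptbp1 and Hnrnph3 passed in 3 each and Pcbp2 in 4. Counting the additional libraries as WT turned the sign for Hnrnph3 (-0.48) and Ptbp1 (0.07), neither of which then passed.

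None of the 8 genes for nuclear import and modification of hnRNP A1 passed in either state (medians -0.04 and 0.05). They include the import receptor gene Tnpo1 and the arginine methyltransferase genes Prmt1 and Prmt5. Among the smallest p-values were those of Rps6kb2 in untreated cells (-0.25 ± 0.08, edgeR adjusted p = 0.0525) and Prmt1 in stimulated cells (0.63 ± 0.20, edgeR adjusted p = 0.0729). No gene of the 3 lists passed the interaction in edgeR, which 0.14% of all tested genes did. Hnrnpll had 1.39 ± 0.35 in it (edgeR adjusted p = 0.174).

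**Figure D5:**
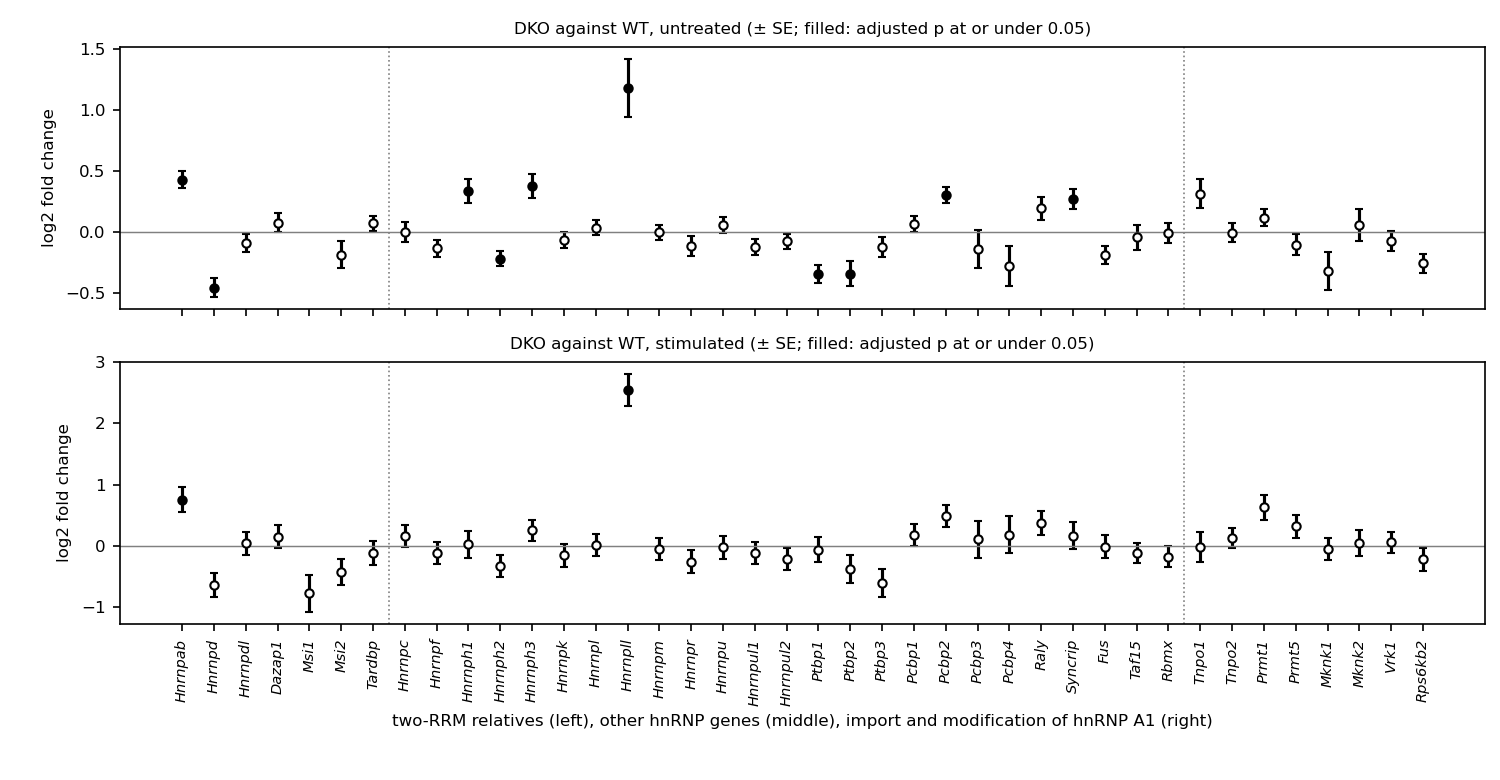
Log2 fold change ± SE of DKO against WT (vertical axes) for the 3 lists (horizontal axis) in untreated (top) and stimulated cells (bottom). Filled points passed an adjusted p of 0.05 in edgeR. Hnrnpll stands highest in both panels (1.19 and 2.55), and no gene of the import and modification list is filled.

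With stimulation, genes of the first 2 lists changed in both directions in both genotypes, against a background in which 40.6% of all tested genes passed in WT and 33% in DKO cells. Among the two-RRM relatives, 1 was higher and 3 lower of 7 in WT and in DKO cells alike. Msi1, an RNA-binding protein gene known from stem cells, had 0.0613 to 0.313 CPM in the 6 untreated libraries, 5.09 and 6.89 CPM in stimulated WT and 2.76 and 3.81 CPM in stimulated DKO libraries. Of the other hnRNP genes, 4 were higher and 5 lower in WT cells and 3 higher and 2 lower in DKO cells. Taf15 was lower by -0.98 ± 0.13 in WT (edgeR adjusted p = 9.7e-05) and -1.02 ± 0.13 in DKO cells (edgeR adjusted p = 8.84e-05), and Hnrnpk was higher by 0.59 ± 0.10 (edgeR adjusted p = 0.000773) and 0.53 ± 0.10 (edgeR adjusted p = 0.00201). Prmt1 was lower by -1.01 ± 0.15 in WT (edgeR adjusted p = 0.000193) and -0.47 ± 0.14 in DKO cells (edgeR adjusted p = 0.0260).

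The genes of most similar profile were sought over the 10 numbered and stimulated libraries among 10060 genes with a mean of 5 CPM or more. The measure was the root mean square difference of log2 CPM after each gene was centred on its own mean, and it is a description only, since the libraries share their groups. For Hnrnpa2b1 the nearest was Gm11427, with a difference of 0.161, then Chrnb1 with 0.264, where Hnrnpa2b1 itself varied by 1.13 about its mean. No Gm11427 transcript matched a transcript of the family. For Hnrnpa1, which varied by 1.51, the nearest genes were Lbhd1 (0.526), Etv5 (0.577) and Bmf (0.597), a looser match. Hnrnpa3 was nearest to Tnfrsf26 (0.138), Ifitm2 (0.168) and Itm2a (0.176), and Hnrnpa0 to Kti12 (0.0467), Sec13 (0.0575) and Stoml2 (0.0581), where Hnrnpa3 varied by 0.749 and Hnrnpa0 by 0.353.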

How the data were processed

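Raw read counts per gene, with exonic gene lengths, were deposited by the authors in 3 tables. Per the submitters' processing notes the tools were FastQC 0.10.1, cutadapt 1.9.1, HISAT2 2.2.1 and HTSeq 0.6.1, and the build was GRCm39. The table of additional WT cells carries GRCm38 coordinates. Read length, strand setting, annotation release and the treatment of reads with several matches were not given in these sources. A further 12 FPKM columns were not used. A stimulated WT column headed with the number 3, which no label has, was used without a number.

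The test of counts was edgeR 4.0.16 under R 4.3.3 (quasi-likelihood, two-sided, TMM scaling, filterByExpr with a minimum count of 10 and total of 15), with Benjamini-Hochberg adjustment over all tested genes and a threshold of 0.05. Genotypes were compared in 6 untreated and in 4 stimulated libraries, and other contrasts used 1 fit over 10 libraries. The SE is the absolute log2 fold change over the square root of F. CPM used plain library totals. Ratios used a pseudocount of 0.5 and exact permutation tests (scipy 1.17.1). Copies were found with blastn 2.17.0 in GENCODE M21. The edgeR test was also run on simulated counts with the same spread for all genes and no effect of sex. That run checks the code only and not its error rates in these libraries. Members, lists and the naming rule were chosen with earlier results of these data known. The rule names the members, their copies that average at least 1 CPM in a group, up to 4 genes per list and comparison by smallest p, and the 5 genes of most similar profile, of which some are left out of the text. Hnrnph1, Hnrnph2, Ptbp2 and Syncrip fall outside the rule and were chosen after their values were seen. Alternatives were RLE scaling, DESeq2 1.42.0, other filters, left-out libraries, summed copies, left-out immunoglobulin genes, a replicate block, 1 joint fit, a term for sex and counting the additional libraries as WT.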

Additional observations from a re-analysis of the deposited data

How the results depend on the processing

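The falls of Hnrnpa1, Hnrnpa2b1 and Gm10052 in DKO cells passed under every alternative run, in both states. Leaving out 1 library gave log2 fold changes of -2.97 to -2.20, -2.34 to -1.85 and -3.17 to -2.28 in untreated and -2.79 to -2.62, -2.31 to -2.05 and -2.88 to -2.77 in stimulated cells. Hnrnpa3 in untreated cells kept its fall except when summed with its copies (0.29, with the sum an alternative added after the data were seen). That sum also reversed Hnrnpa3 for the interaction (-0.30) and for stimulated against untreated WT (-0.998) and DKO cells (-1.30).

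Hnrnpa0 in stimulated DKO against WT cells passed in DESeq2 (0.62), without a filter (0.61), in 1 fit over 10 libraries (0.65) and without DKO library 1 or 2 (range of left-out libraries 0.46 to 0.77). Hnrnpa3 passed there without DKO library 2 (range -0.338 to -0.0581). For the interaction Hnrnpa3 passed in DESeq2 (0.72), without a filter (0.75) and without stimulated DKO library 2 (range 0.61 to 0.85), as did Hnrnpa0 without that library (range 0.26 to 0.61). Without untreated DKO library 2 the interaction changed sign for Hnrnpa1 (0.30, lowest -0.47), Hnrnpa2b1 (0.19, lowest -0.30) and Gm10052 (0.39, lowest -0.50). None of these passed.

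For stimulated against untreated WT cells, Hnrnpa1 did not pass when summed with Gm10052 (0.62) or all copies (0.62) or with the additional libraries counted as WT (0.96), nor did Hnrnpa3 with those libraries (0.63). Hnrnpa2b1 ranged from -0.0856 to 0.0102. In DKO cells Hnrnpa1 did not pass when summed with Gm10052 (0.45) or all copies (0.45) or without stimulated library 1 (range 0.79 to 1.56). Hnrnpa2b1 ranged from -0.37 to 0.13. Hnrnpa0 passed in DESeq2 (-0.33), with immunoglobulin genes left out (-0.37) and without untreated WT library 2 or stimulated DKO library 1 (range -0.53 to -0.19). The causes were not tested, beyond the summed rows being other counts.

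Genes called in untreated cells numbered 2638, and 786 with the replicate block, 319 with the additional libraries as WT, 4392 with a term for sex (WT library 2 and DKO library 1 read as female) and 923 to 2779 without 1 library. Same-numbered libraries correlated at -0.35, -0.34 and 0.14 in their deviations, and the numbers were not taken as pairs. The highest correlation of any WT with any DKO library, 0.44, was that of the 2 female libraries. Since sex differs within numbers 1 and 2, this check cannot exclude that same-numbered libraries were paired. Under the block all members kept their calls (Hnrnpa1 -2.59, Hnrnpa2b1 -2.08, Hnrnpa3 -0.91, Gm10052 -2.75), while Gm6793, Gm8991 and Gm11847 did not pass. For the interaction no block was run, since the stimulated columns share only the number 1. In stimulated cells 1625 genes were called, 2847 without a filter, 3429 in 1 fit and 576 to 5977 without 1 library. For the interaction 21 were called, 174 in DESeq2, 491 without a filter and 1 to 1244 without 1 library. For stimulated against untreated WT cells 6097 were called, 2437 with the additional libraries as WT and 3557 to 7031 without 1 library.

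The joint share of Hnrnpa3 and Hnrnpa0 was 17.5%, 49.9%, 11.8%, 46.7% and 17.2% without division by length in untreated WT, untreated DKO, stimulated WT, stimulated DKO and additional WT cells. With Gm10052 added to Hnrnpa1 it was 21.9% in untreated and 15.4% in additional WT cells. With all copies it was 30.4%, 15.6%, 58.1% and 24.9% in untreated WT, stimulated WT, stimulated DKO and additional WT cells. DKO stayed above WT in each, which the fall of the targeted pair alone would give.

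Copies that did not pass changed sign without 1 library. Gm5641 ranged from -0.304 to 0.117 in untreated and -0.303 to 0.967 in stimulated DKO against WT, -0.171 to 1.07 for the interaction and -0.870 to 0.370 for stimulated against untreated DKO. In stimulated DKO against WT the range was -0.431 to 0.146 for Gm6793, -0.552 to 0.249 for Gm12960 and -0.223 to 0.614 for Gm11847. For the interaction it was -0.557 to 0.245 for Gm11847 and -0.341 to 0.372 for Gm8991. With the additional libraries as WT, Hnrnph3 (-0.48), Hnrnpll (-0.00072) and Ptbp1 (0.0682) did so in untreated cells.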
